A study of Homo sapiens with 26 samples.

Results

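The immediate early feedback regulators described here are 10 genes, out of 25745 genes measured in an APEX-seq study of RNA near the plasma membrane. They comprise 4 dual-specificity MAP kinase phosphatases (DUSP1, DUSP4, DUSP5 and DUSP6), 3 RNA-binding proteins that promote mRNA decay (ZFP36, ZFP36L1 and ZFP36L2), 2 growth arrest genes (BTG2 and GADD45B) and ARC. The group was chosen by the genes' known roles and selected on labeled minus control differences of these data, so those differences are given as a description and carry no test here. All 10 genes were in the table, and 9 passed the filter on low values, a log2 FPKM above 0 in at least 3 libraries. DUSP6 was above 0 in 0 libraries and did not pass. Levels are in FPKM, fragment numbers divided by exon length and by library size, so different genes can be compared.

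APEX2 is an engineered peroxidase that tags molecules near it with biotin when cells are given biotin-phenol and hydrogen peroxide, and tagged RNA is then pulled down on streptavidin beads. Each of 4 constructs was stably expressed in HEK293T, a line from human embryonic kidney with the large T antigen of SV40. Lyn11 had 4 labeled and 4 control libraries, and Lck, CD28 and PDGFR had 3 of each, 26 in all. Lyn11 and Lck carried APEX2 on the inside of the membrane, and CD28 and PDGFR carried it on the outside. The labels list 30 min of biotin-phenol and 1 min of 1 mM hydrogen peroxide for every library, controls included, and do not say which step the unlabeled controls lacked, which promoter drove the constructs or whether a line was 1 clone.

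Immediate early genes are transcribed within minutes of a stimulus from factors already present in the cell, without new protein synthesis. A first wave encodes transcription factors such as EGR1 and FOS. Several of the regulators described here are known as brakes on that response: the phosphatases remove the activating phosphates from MAP kinases, ZFP36 proteins bind AU-rich elements in short-lived mRNAs and recruit the deadenylation machinery, and BTG2 and GADD45B slow proliferation. ARC is best known from rodent neurons, where its mRNA travels to dendrites and its protein acts in endocytosis of glutamate receptors.

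Read totals recovered from the deposited values were 19.99 to 35.57 M for 14 inside-construct libraries and 11.6 to 16.62 M for 12 outside-construct libraries (1 M is 1000000 reads), so depth and side cannot be told apart. The libraries that stood apart were replicate 2 of labeled CD28, where 3148 genes had 0 reads, and replicate 2 of control PDGFR, where 3024 did. Of the 7 HEK293-derived markers, all were measured, and their summed level was 76.1 to 132 FPKM in labeled and 70.6 to 138 FPKM in control libraries. Markers of other cell types were low in the same libraries. The 4 blood markers in the table, of 7 listed, summed to 3.42 to 6.22 FPKM in labeled and 2.84 to 6.55 FPKM in control libraries. The 4 fibroblast markers, of 6, summed to 5.37 to 11.3 FPKM in labeled and 5.62 to 10.7 FPKM in control libraries. The 2 epithelial carcinoma markers, of 5, summed to 0.698 to 2.14 FPKM in labeled and 0.508 to 2.43 FPKM in control libraries. No marker in the table was at 0 reads in every library. The summed levels hide HBA1, a haemoglobin gene with 0 to 38 reads per library and a near-identical copy, HBA2, with which it may share reads. HBA1 was called higher with Lck, at 2.34 ± 0.51 log2 units (limma adjusted p = 0.0045), and was at 1.87 ± 0.72 with Lyn11, -0.20 ± 1.04 with CD28 and -0.91 ± 1.07 with PDGFR, labeled minus control. The part of these markers in the results was not tested.

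The regulators share short, compact genes. In GENCODE 29 on GRCh38 the gene spans ran from 2138 bases for GADD45B to 17605 bases for DUSP4, against a median of 32431 bases over 12837 coding genes tested, and each had 2 to 4 exons against a median of 9. DUSP1 lies at chr5:172768090-172771195 on the minus strand and DUSP5 at chr10:110497838-110511544 on the plus strand. GADD45B lies at chr19:2476122-2478259 and ZFP36 at chr19:39406813-39409412, both on the plus strand. BTG2 lies at chr1:203305491-203309602 on the plus strand, ZFP36L1 at chr14:68787660-68796253 and ZFP36L2 at chr2:43222402-43226609, both on the minus strand. DUSP6 lies at chr12:89347232-89353271 on the minus strand. An antisense gene overlaps DUSP1 (AC022217.3) and another overlaps DUSP6 (AC024909.2). Because the strandedness of the libraries was not given, reads of DUSP1 and DUSP6 cannot be told apart from those of their antisense partners.

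Promoter sequence, from RefSeq on GRCh38.p14, was given for 6 of the 10 genes: DUSP1, DUSP6, ZFP36, ZFP36L1, BTG2 and GADD45B. The 3 printed here belong to the genes among them whose labeled mean exceeded the control mean with each construct. They run 5′ to 3′ on the gene's strand, end shortly after the start site, and carry the matched motif in capitals. DUSP1 lies in chr5:172771146-172771445 on the minus strand, GADD45B in chr19:2475877-2476176 and BTG2 in chr1:203305269-203305568 on the plus strand.
DUSP1: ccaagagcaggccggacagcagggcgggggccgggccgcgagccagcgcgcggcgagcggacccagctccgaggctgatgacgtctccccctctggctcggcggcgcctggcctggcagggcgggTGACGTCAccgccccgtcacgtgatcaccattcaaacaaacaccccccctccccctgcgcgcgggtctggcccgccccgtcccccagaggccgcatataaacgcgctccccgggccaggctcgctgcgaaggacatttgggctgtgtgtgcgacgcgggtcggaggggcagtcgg
GADD45B: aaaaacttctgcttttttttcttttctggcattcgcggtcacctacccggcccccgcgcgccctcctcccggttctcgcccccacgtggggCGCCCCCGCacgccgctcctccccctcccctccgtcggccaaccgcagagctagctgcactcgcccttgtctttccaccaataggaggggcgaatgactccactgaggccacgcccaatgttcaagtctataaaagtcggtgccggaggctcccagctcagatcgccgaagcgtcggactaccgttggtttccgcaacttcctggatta
BTG2: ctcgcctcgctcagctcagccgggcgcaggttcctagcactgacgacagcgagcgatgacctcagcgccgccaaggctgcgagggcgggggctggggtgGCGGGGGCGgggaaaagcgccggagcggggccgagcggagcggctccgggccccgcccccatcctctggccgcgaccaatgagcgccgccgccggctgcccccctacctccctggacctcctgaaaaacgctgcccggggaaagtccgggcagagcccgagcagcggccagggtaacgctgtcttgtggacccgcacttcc

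Both strands of the 6 promoters were searched for the CArG box bound by serum response factor, for TGACGTCA (the cyclic AMP response element), for TGACTCA (the AP-1 site) and for GCGTGGGCG or GCGGGGGCG (EGR sites). DUSP1 held TGACGTCA 125 to 118 bases before its start, a match in 1.85% of 35116 promoters. GADD45B and BTG2 each held an EGR site, 159 to 151 and 151 to 143 bases before the start, on the minus and the plus strand of the gene, and 5.77% of promoters held one. Of the 6 promoters, 0 held a CArG box (1.29% of all promoters) and 0 held TGACTCA (4.95%). DUSP6, ZFP36 and ZFP36L1, whose promoters are not printed, held 0 matches to any of these motifs. Whether the motifs go with labeling was not tested. These matches describe the letters in this window only.

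ATTTA, the core of the AU-rich elements that the ZFP36 proteins bind, was counted in the 3′ untranslated region of 1 transcript per gene. ZFP36 held 5 copies (7.01 per kilobase), DUSP1 held 4 (5.95 per kilobase), ZFP36L1 held 8 (4.28 per kilobase) and ZFP36L2 held 5 (2.61 per kilobase), against a median of 1.58 per kilobase over 12837 coding genes. DUSP4 held 6 copies (1.51 per kilobase), BTG2 held 2 (0.92 per kilobase) and DUSP6 held 1 (0.49 per kilobase). DUSP5, GADD45B and ARC held 0, so 7 of the 10 regulators held a copy, a share close to the 71.3% of coding genes that held at least 1. The densest stretches of the 3 genes with the most copies per kilobase show how close the copies stand, with ATTTA in capitals and overlapping copies in DUSP1.
ZFP36: tgggccctttATTTAtgacgactttATTTA
DUSP1: ggctcgagagggctggtccttATTTATTTA
ZFP36L1: aagcttATTTAacttatcaaaacgtATTTA

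GADD45B, ARC and DUSP1 were the regulators with the largest labeled minus control differences averaged over the 4 constructs, at 0.85 ± 0.13, 0.94 ± 0.22 and 0.72 ± 0.14 log2 units (± SE of the fit here and throughout). In all 3 genes each of the 13 labeled libraries was above the mean of its own controls. DUSP5 was higher with the inside constructs, at 0.54 ± 0.17 with Lyn11 and 0.77 ± 0.12 with Lck. ZFP36L1 was lower with every construct, by small amounts. DUSP4, DUSP6, ZFP36 and ZFP36L2 showed no common direction. In bulk pull-downs of this kind, more of an RNA per cell, a larger labeled share of it and more cells that hold it cannot be told apart.

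**Figure D1:**
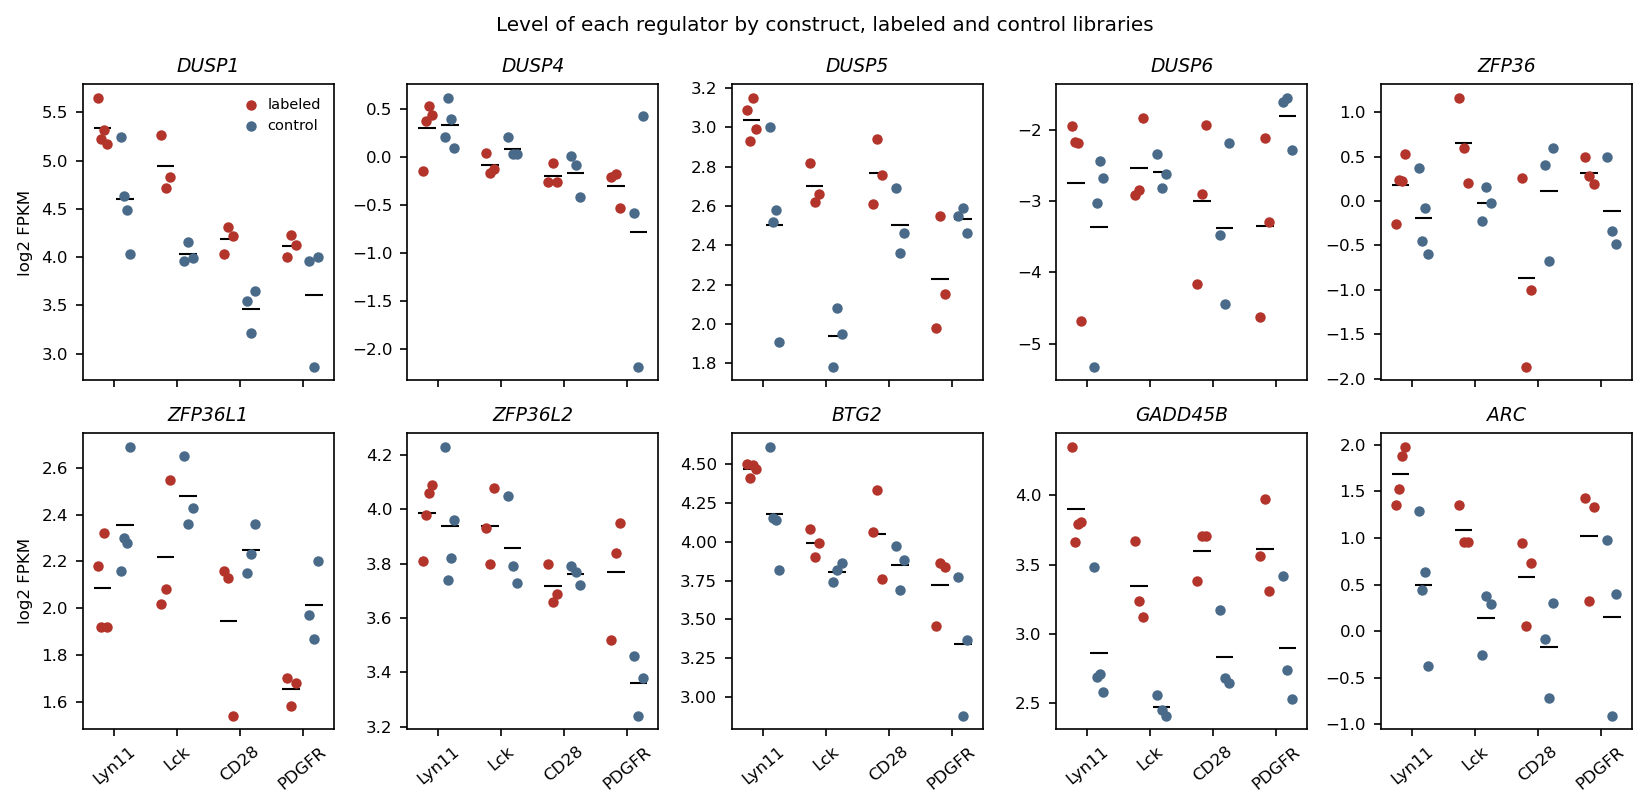
Level of each of the 10 regulators (log2 FPKM, a separate vertical scale per gene) by construct, with labeled libraries in red left of control libraries in blue. Points are libraries and bars are group means. GADD45B and ARC means are higher in labeled libraries of all 4 constructs, and Lyn11 control replicate 1 stands above the other Lyn11 controls in DUSP1, DUSP5, BTG2, GADD45B and ARC.

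DUSP1, a nuclear phosphatase that acts on p38, JNK and ERK, had the highest mean of the group over all controls. In CD28 controls its mean of 3.47 log2 FPKM was below BTG2 at 3.85 and ZFP36L2 at 3.76. With Lyn11, DUSP1 had 5.65, 5.22, 5.32 and 5.17 log2 FPKM in labeled libraries, against 5.25, 4.63, 4.49 and 4.03 in controls. With Lck it had 5.27, 4.72 and 4.83 in labeled libraries, against 3.96, 4.16 and 3.99 in controls. The Lck groups did not overlap, whereas a single Lyn11 control reached into the labeled range. With CD28 it had 4.03, 4.31 and 4.22 in labeled libraries, against 3.54, 3.21 and 3.65 in controls, which did not overlap. With PDGFR it had 4.0, 4.23 and 4.13 in labeled libraries, against 3.96, 2.86 and 4.0 in controls, and these met at 4.0. The differences were 0.74 ± 0.23 with Lyn11, 0.90 ± 0.16 with Lck, 0.72 ± 0.33 with CD28 and 0.51 ± 0.33 with PDGFR. The PDGFR value was 0.14 without control replicate 2, the PDGFR library that stood apart. Reads behind these values numbered 200 to 2411 per library.

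DUSP5, a nuclear phosphatase selective for ERK, had its largest labeled minus control differences in the inside constructs. With Lyn11, DUSP5 was at 3.09, 2.93, 3.15 and 2.99 log2 FPKM in labeled libraries, against 3.00, 2.52, 2.58 and 1.91 in controls. With Lck, DUSP5 was at 2.82, 2.62 and 2.66 in labeled libraries, against 1.78, 2.08 and 1.95 in controls, a difference of 0.77 ± 0.12. Every Lck labeled library was above every Lck control, and with Lyn11 only control replicate 1 reached into the labeled range. With CD28, DUSP5 was at 2.61, 2.94 and 2.76 in labeled libraries, against 2.69, 2.36 and 2.46 in controls. With PDGFR, DUSP5 was at 1.98, 2.55 and 2.15 in labeled libraries, against 2.55, 2.59 and 2.46 in controls. Labeled libraries were therefore lower on average than controls with PDGFR, a difference of -0.31 ± 0.25, and the groups overlapped in both outside constructs. With single libraries left out, the Lyn11 difference was as low as 0.34, without control replicate 4, and the PDGFR difference ran from -0.47 to -0.18.

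DUSP4 (chr8:29333064-29350668, minus strand), another nuclear phosphatase of ERK and JNK, and DUSP6, the cytoplasmic phosphatase of ERK, were low. DUSP4 had -0.14, 0.38, 0.54 and 0.44 log2 FPKM in Lyn11 labeled libraries, against 0.21, 0.62, 0.40 and 0.10 in controls. It ran from -0.53 to 0.04 over the labeled libraries of the other 3 constructs, against -2.19 to 0.43 over their controls, where the lowest value is PDGFR control replicate 2 with 21 reads. DUSP4 overlapped in every construct, with differences of -0.03 ± 0.30 with Lyn11, -0.17 ± 0.22 with Lck, -0.03 ± 0.44 with CD28 and 0.48 ± 0.45 with PDGFR. The PDGFR value turned to -0.23 without control replicate 2 and was 1.08 without control replicate 3, and the values for Lyn11 and CD28 also changed sign with single libraries left out, so DUSP4 has no settled direction in these 3 constructs. DUSP6 had 2 to 30 reads per library, and its levels ran from -4.69 to -1.83 log2 FPKM in labeled libraries, against -5.33 to -1.55 in controls. Fitted with no filter on low values, its average difference was -0.12 ± 0.43 and its differences by construct ran from -1.54 ± 1.08 with PDGFR to 0.62 ± 0.68 with Lyn11, so no difference was detectable at this depth.

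ZFP36 (tristetraprolin), the founding member of its family, was at the limit of what the depth resolves, with 7 to 94 reads per library. For Lck, ZFP36 was at 1.16, 0.60 and 0.20 log2 FPKM in labeled libraries, against -0.22, 0.16 and -0.02 in controls, which narrowly did not overlap. For CD28, ZFP36 was at 0.26, -1.87 and -1.0 in labeled libraries, against 0.40, -0.68 and 0.60 in controls. The lowest, labeled replicate 2, is the CD28 library that stood apart. For Lyn11, ZFP36 was at -0.26, 0.24, 0.23 and 0.53 in labeled libraries, against 0.37, -0.45, -0.08 and -0.60 in controls, and with PDGFR the groups also overlapped. Differences were 0.38 ± 0.37 with Lyn11, 0.68 ± 0.26 with Lck, -0.98 ± 0.54 with CD28 and 0.43 ± 0.55 with PDGFR. With single libraries left out, the CD28 value ran from -1.54, without labeled replicate 1, to -0.48, without labeled replicate 2.

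ZFP36L1 was the regulator with labeled libraries lower in every construct. It had 2.18, 1.92, 2.32 and 1.92 log2 FPKM in Lyn11 labeled libraries, against 2.16, 2.30, 2.28 and 2.69 in controls. ZFP36L1 with Lck was at 2.02, 2.08 and 2.55 in labeled libraries, against 2.65, 2.36 and 2.43 in controls. Both inside constructs overlapped, through Lck labeled replicate 3 and through Lyn11 labeled replicates 1 and 3. ZFP36L1 with CD28 was at 2.16, 2.13 and 1.54 in labeled libraries, against 2.15, 2.23 and 2.36 in controls. ZFP36L1 with PDGFR was at 1.70, 1.58 and 1.68 in labeled libraries, against 1.97, 1.87 and 2.20 in controls, where all labeled libraries were below all controls. The differences were -0.27 ± 0.18, -0.26 ± 0.13, -0.30 ± 0.26 and -0.36 ± 0.26 with Lyn11, Lck, CD28 and PDGFR, -0.30 ± 0.11 on average, and none of these passed the threshold. The average crossed the threshold with equal weights for all libraries (limma adjusted p = 0.0478). It also crossed, as did Lck, without Lck labeled replicate 3, the highest Lck labeled library, whose removal must lower the difference. These contrasts were known when the genes were chosen, so no crossing is read as a test. The CD28 value shrank to -0.10 without CD28 labeled replicate 3.

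ZFP36L2, the third of the family, differed little between labeled and control libraries except with PDGFR. Its levels ran from 3.80 to 4.09 log2 FPKM over the inside labeled libraries, against 3.73 to 4.23 over the inside controls, with differences of 0.05 ± 0.13 with Lyn11 and 0.08 ± 0.09 with Lck. ZFP36L2 with CD28 was at 3.80, 3.66 and 3.69 in labeled libraries, against 3.79, 3.77 and 3.72 in controls. ZFP36L2 with PDGFR was at 3.52, 3.84 and 3.95 in labeled libraries, against 3.46, 3.24 and 3.38 in controls, a difference of 0.41 ± 0.19. PDGFR was the one construct in which its labeled libraries were all above the controls.

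BTG2, a p53 target that binds the CAF1 deadenylase and restrains cell cycle entry, was higher on average in labeled libraries of all 4 constructs, by amounts that rest on few libraries. BTG2 with Lyn11 was at 4.50, 4.41, 4.49 and 4.47 log2 FPKM in labeled libraries, against 4.61, 4.15, 4.14 and 3.82 in controls. BTG2 with Lck was at 4.08, 3.90 and 3.99 in labeled libraries, against 3.74, 3.82 and 3.86 in controls. Lck was the one construct without overlap, and the Lyn11 overlap came from control replicate 1. BTG2 with CD28 was at 4.06, 4.33 and 3.76 in labeled libraries, against 3.97, 3.69 and 3.88 in controls. BTG2 with PDGFR was at 3.46, 3.86 and 3.84 in labeled libraries, against 3.77, 2.88 and 3.37 in controls. Of the 13 labeled libraries, 12 were above their own control mean, and the differences were 0.29 ± 0.15, 0.18 ± 0.11, 0.21 ± 0.22 and 0.38 ± 0.22 with Lyn11, Lck, CD28 and PDGFR. Without CD28 labeled replicate 2 the CD28 difference was 0.065, without PDGFR control replicate 2 the PDGFR difference was 0.15, and without Lyn11 control replicate 4 the Lyn11 difference was 0.17.

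GADD45B, a stress-inducible activator of the p38 and JNK pathway that also takes part in growth arrest and DNA demethylation, was higher in labeled libraries of each construct. With Lyn11 it had 4.35, 3.66, 3.79 and 3.81 log2 FPKM in labeled libraries, against 3.48, 2.69, 2.71 and 2.58 in controls. With Lck it had 3.67, 3.24 and 3.12 in labeled libraries, against 2.56, 2.45 and 2.41 in controls. With CD28 it had 3.38, 3.71 and 3.71 in labeled libraries, against 3.17, 2.68 and 2.65 in controls. In these 3 constructs every labeled library was above every control. With PDGFR it had 3.56, 3.97 and 3.31 in labeled libraries, against 3.42, 2.74 and 2.53 in controls, and replicate 1 of the controls overlapped. As geometric means, GADD45B stood at 15.0 FPKM in Lyn11 labeled libraries against 7.27 FPKM in controls, and at 10.1 FPKM in Lck labeled libraries against 5.55 FPKM in controls. The differences were 1.04 ± 0.22 with Lyn11, 0.87 ± 0.15 with Lck, 0.77 ± 0.32 with CD28 and 0.71 ± 0.32 with PDGFR.

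ARC (chr8:142611044-142614472, minus strand) was a low transcript in control libraries, and its labeled libraries were higher on average in each construct. For Lyn11, ARC was at 1.35, 1.53, 1.88 and 1.98 log2 FPKM in labeled libraries, against 1.29, 0.44, 0.63 and -0.38 in controls. For Lck, ARC was at 1.35, 0.96 and 0.96 in labeled libraries, against -0.26, 0.38 and 0.29 in controls. Both inside constructs were free of overlap, by a narrow margin with Lyn11. For CD28, ARC was at 0.95, 0.06 and 0.73 in labeled libraries, against -0.09, -0.72 and 0.30 in controls. For PDGFR, ARC was at 1.43, 0.32 and 1.33 in labeled libraries, against 0.98, -0.91 and 0.40 in controls. Both outside constructs overlapped. The differences were 1.19 ± 0.36 with Lyn11, 0.95 ± 0.26 with Lck, 0.75 ± 0.52 with CD28 and 0.87 ± 0.54 with PDGFR, from 21 to 275 reads per library. The PDGFR difference was 0.34 without control replicate 2, and the CD28 difference was 0.48 without CD28 control replicate 2.

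**Figure D2:**
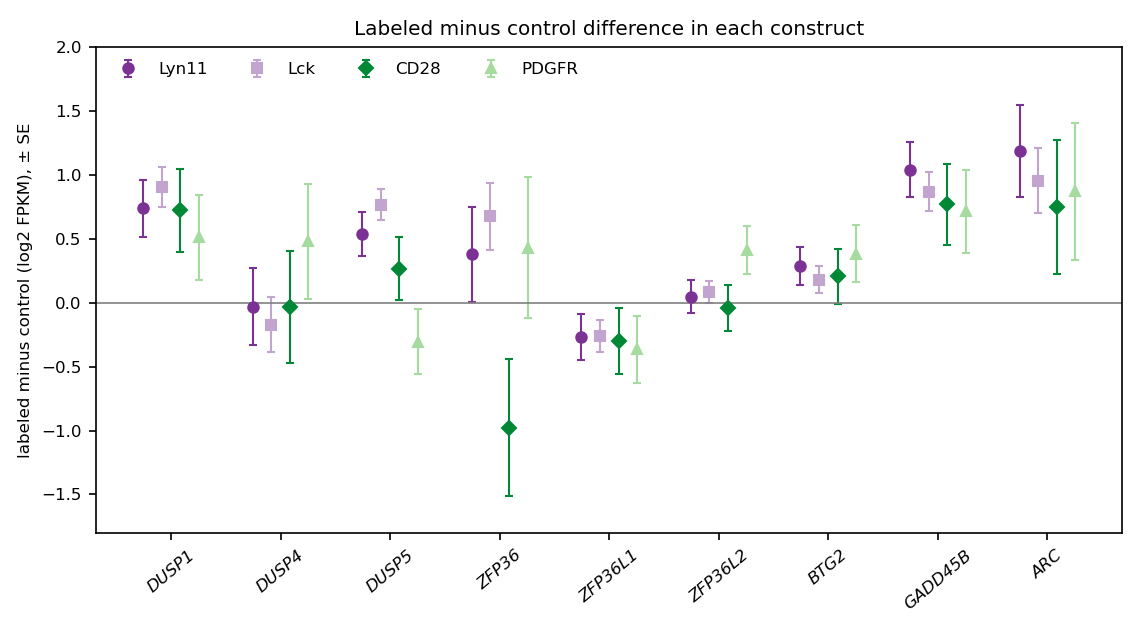
Labeled minus control difference (log2 FPKM, ± SE of the fit) of the 9 regulators that passed the filter, for Lyn11, Lck, CD28 and PDGFR. DUSP1, BTG2, GADD45B and ARC lie above 0 and ZFP36L1 below 0 in all 4 constructs, and the outside constructs have the wider errors.

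Across all genes, limma with Benjamini-Hochberg adjustment over 22284 genes called 0.758% of genes with Lyn11 (0.696% higher and 0.0628% lower), 8.22% with Lck (5.39% higher and 2.83% lower), 0.0673% with CD28 (0.0359% higher and 0.0314% lower) and 0.534% with PDGFR (0.408% higher and 0.126% lower), at an adjusted p under 0.05. Of the 9 regulators tested, 1 was called higher with Lyn11 (GADD45B), 4 with Lck (DUSP1, DUSP5, GADD45B and ARC), 0 with CD28 and 0 with PDGFR. Averaged over the constructs, 3 were called higher (DUSP1, GADD45B and ARC), beside 4.22% of all genes, and 0 were called lower, beside 2.95%, of 7.17% called in all. The 4 Lck calls rest on the weights given to the libraries, and with equal weights each of them ended. These contrasts were known when the genes were chosen, so nothing is read from the counts. The regulators' median average difference was 0.26, against -0.01 over all genes. All labeled libraries were above all controls for 2 of the 9 with Lyn11, 6 with Lck, 2 with CD28 and 1 with PDGFR, beside 3.40%, 12.9%, 7.44% and 7.53% of all genes. All labeled libraries were below all controls for 0 with Lyn11, Lck and CD28 and 1 with PDGFR, beside 1.91%, 13.2%, 6.59% and 6.39%. The same sign in all 4 constructs was seen for 4 regulators on the higher side, beside 12.4% of genes, and for 1 on the lower side, beside 13.5%.

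Lyn11 control replicate 1 bears on several of these values. It was the highest of the 4 Lyn11 controls for 7 of the 9 regulators, with a median deviation of 0.50 log2 units from the group mean, against 0.35 for 21 listed immediate early transcription factors and secreted proteins and 0.06 for all genes tested. It is also the deepest library, at 35.57 M reads. Without it, the Lyn11 differences were 0.95 for DUSP1, 0.70 for DUSP5, 1.46 for ARC and 1.25 for GADD45B, and all 4 were called. It was the highest Lyn11 control for each of these 4 genes, so leaving it out had to raise their differences. It was also singled out by these same regulators, so nothing is read from the calls. Without Lyn11 control replicate 2, 3 or 4, the GADD45B difference with Lyn11 was 0.98, 0.99 and 0.95 and the call ended, as it did when the Lyn11 libraries were fitted alone (limma adjusted p = 0.0936). For ARC with Lck, leaving out labeled replicate 1 or 2 or control replicate 1 or 3 gave 0.82, 1.02, 0.75 and 1.03 and ended the call, as did fitting the Lck libraries alone (limma adjusted p = 0.0788) and the replicate number as a block (limma adjusted p = 0.0693).

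Labeling differences were also compared between the sides of the membrane. This contrast is built from the same labeled minus control differences, which were known when the genes were chosen, so it is not independent of that choice. The inside minus outside difference was largest for ZFP36, at 0.80 ± 0.45 (adjusted p = 0.785), and for DUSP5, at 0.67 ± 0.21 (adjusted p = 0.637). The 95% interval was -0.13 to 1.73 for ZFP36 and 0.24 to 1.10 for DUSP5. Over the alternatives the ZFP36 value ran from 0.38 to 1.08 and the DUSP5 value from 0.56 to 0.75. By limma with adjustment over 22284 genes, 0% of genes and 0 of 9 regulators passed, and DUSP5 was the 1 regulator with an unadjusted p under 0.05. Over all genes, 1457 had an unadjusted p under 0.05, limma voom called 0 and equal weights called 1. GADD45B differed by 0.21 (95% interval -0.33 to 0.76), ARC by 0.26 (-0.64 to 1.17), DUSP1 by 0.20 (-0.36 to 0.77) and BTG2 by -0.06 (-0.44 to 0.32), each inside minus outside. Intervals of this width do not show that the sides act alike. ZFP36L1 differed by 0.07 (-0.38 to 0.51), ZFP36L2 by -0.12 (-0.44 to 0.20) and DUSP4 by -0.32 (-1.08 to 0.44).

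Differences between constructs of the same side, built from the same values, did not pass either. The Lyn11 minus Lck labeling difference ran from -0.30 ± 0.45 for ZFP36 to 0.24 ± 0.44 for ARC, with an adjusted p of 0.999 for all 9 regulators by limma. Of all genes, 0% were called there, while 365 had an unadjusted p under 0.05 and limma voom called 0. The CD28 minus PDGFR labeling difference ran from -1.41 ± 0.77 for ZFP36 (adjusted p = 0.952) to 0.57 ± 0.35 for DUSP5 (adjusted p = 0.965) by limma. Without CD28 labeled replicate 2, which stood apart, the ZFP36 value was -0.91. In the CD28 minus PDGFR comparison, 0.0135% of genes were called and 0 of the 9 regulators. There, 1212 genes had an unadjusted p under 0.05 and limma voom called 0.

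Control libraries ranked the regulators over a wide range of levels. Means over the 13 controls (± SD) were 3.98 ± 0.61 log2 FPKM for DUSP1, 3.82 ± 0.41 for BTG2 and 3.74 ± 0.27 for ZFP36L2. These 3 did not differ from one another beyond their spread over the pooled controls. Their order changed with the construct, with DUSP1 highest of the 3 in Lyn11 controls and lowest in CD28 controls. GADD45B followed at 2.77 ± 0.35, DUSP5 at 2.38 ± 0.35 and ZFP36L1 at 2.28 ± 0.23, and the last pair did not differ beyond its spread. ARC at 0.18 ± 0.63, ZFP36 at -0.07 ± 0.44 and DUSP4 at -0.09 ± 0.71 formed a low set with no gap beyond the spread, and DUSP6 was lowest at -2.83 ± 1.07. In geometric means DUSP1 stood at 15.8 FPKM and DUSP6 at 0.141 FPKM.

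DUSP1, BTG2 and ZFP36L2 averaged higher in inside than in outside control libraries, but not evenly over the constructs. DUSP1 control means were 4.60 log2 FPKM with Lyn11, 4.04 with Lck, 3.47 with CD28 and 3.60 with PDGFR. In the same order BTG2 was at 4.18, 3.81, 3.85 and 3.34, so Lck was not above CD28. ZFP36L2 was at 3.94, 3.86, 3.76 and 3.36, with PDGFR standing lowest. The p-values take libraries, not cell lines, as replicates. The controls also enter the differences that chose the genes. DUSP1 ran from 3.96 to 5.25 log2 FPKM with a median of 4.16 over 7 inside controls, against 2.86 to 4.0 with a median of 3.59 over 6 outside controls, a difference of 0.78 ± 0.19 (limma adjusted p = 0.0136). BTG2 ran from 3.74 to 4.61 with a median of 3.86 inside, against 2.88 to 3.97 with a median of 3.73 outside, a difference of 0.40 ± 0.13 (limma adjusted p = 0.0494). ZFP36L2 ran from 3.73 to 4.23 with a median of 3.82 inside, against 3.24 to 3.79 with a median of 3.59 outside, a difference of 0.34 ± 0.11 (limma adjusted p = 0.0495). All 9 regulators tested overlapped between the sides, beside 3.11% of genes with every inside control above every outside one and 1.25% below, and DUSP1 overlapped only at its ends. The 3 of 9 called stand beside 9.90% of all genes, 6.81% called higher and 3.09% called lower, a split of 68.8% higher that became 83.0% with libraries centred on their medians.

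The remaining regulators did not pass in that comparison. DUSP4 differed by 0.68 ± 0.26 (limma adjusted p = 0.0969), which includes PDGFR control replicate 2 at -2.19, and by 0.33 without that library, and without PDGFR control replicate 3 it passed at 0.98. DUSP5 was at -0.30 ± 0.15, GADD45B at -0.20 ± 0.19, ZFP36L1 at 0.29 ± 0.15, ARC at 0.32 ± 0.31 (0.055 without PDGFR control replicate 2) and ZFP36 at -0.11 ± 0.32. The DUSP1 call ended in 1 of 35 alternatives, without CD28 control replicate 2, where the difference was 0.72 (limma adjusted p = 0.0568). Alternatives that left out only a labeled library could not move these control differences, only their p-values. The BTG2 call was kept in 8 of 35 alternatives and the ZFP36L2 call in 12, with limma adjusted p-values of up to 0.152 and 0.117, so both sit at the threshold. With the replicate number as a block, the limma adjusted p was 0.112 for BTG2 and 0.117 for ZFP36L2, and with the controls fitted alone it was 0.116 and 0.098. VIM, a marker of HEK293-derived cells, was also higher in inside controls, by 0.60 ± 0.13 (limma adjusted p = 0.00652), and its part was not tested. Cell line, depth and side of the construct cannot be told apart in these control values.

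**Figure D3:**
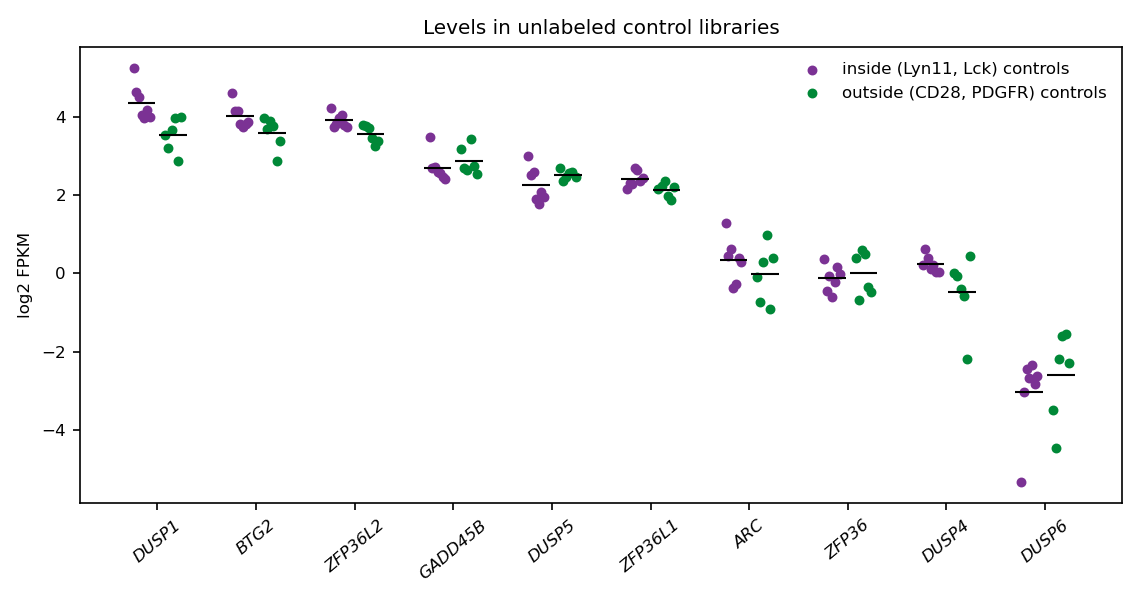
Levels (log2 FPKM) of the 10 regulators in control libraries, inside constructs in purple left of outside constructs in green, ordered by mean. Points are libraries and bars are means of the points. DUSP1 shows the largest difference of means between the sides, at 3.96 to 5.25 inside against 2.86 to 4.0 outside.

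Related genes were taken from lists of the pathway's other members. Of 5 other MAP kinase phosphatases tested, 1 was called higher in the average over constructs, DUSP10, which acts on p38 and JNK, at 0.40 ± 0.12, and 0 lower. Of 6 other receptor and ERK feedback inhibitors, 1 was called higher, the EGF receptor inhibitor ERRFI1 at 0.33 ± 0.08, and 1 lower, the Sprouty protein SPRY1 at -0.27 ± 0.08. Among 16 MAP kinases and their kinases, 1 was called higher, MAPK14 (p38 alpha) at 0.17 ± 0.05, and 0 lower. These sit beside 4.22% of all genes called higher and 2.95% called lower, and the 3 list medians ran from 0.01 to 0.10, against -0.01 for all genes.

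Of 27 genes of the BTG family and mRNA decay machinery, 2 were called higher, the antiproliferative genes BTG1 at 0.45 ± 0.08 and TOB2 at 0.40 ± 0.08, and 0 lower. Of 12 other growth arrest and p53 target genes, 2 were called higher, the kinase PLK2 at 0.65 ± 0.15 and the phosphatase subunit PPP1R15A at 0.45 ± 0.07, and 0 lower. The medians of these 2 lists were -0.010 and -0.004. Of 21 immediate early transcription factors and secreted proteins, 8 were called higher and 0 lower, with a median of 0.32. EGR1, FOS and FOSB led them at 3.09 ± 0.20, 2.70 ± 0.32 and 1.78 ± 0.17. The 3 averages exceed those of every feedback regulator described here. EGR1 ran from 3.52 to 4.25 log2 FPKM in the inside labeled libraries, against -0.48 to 0.29 in the inside controls. With CD28, EGR1 ran from 0.05 to 1.54 in labeled libraries, against -2.17 to 0.16 in controls, and these overlapped. With PDGFR it ran from 0.47 to 1.37 in labeled libraries, against -1.34 to -0.63 in controls. The EGR1 differences were 3.90 ± 0.32 with Lyn11, 4.41 ± 0.23 with Lck, 2.09 ± 0.47 with CD28 and 1.95 ± 0.48 with PDGFR. The inside minus outside difference of 2.14 ± 0.39 did not pass (limma adjusted p = 0.175). The lists were drawn up with earlier results of these data known, so their counts describe these genes only.

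**Figure D4:**
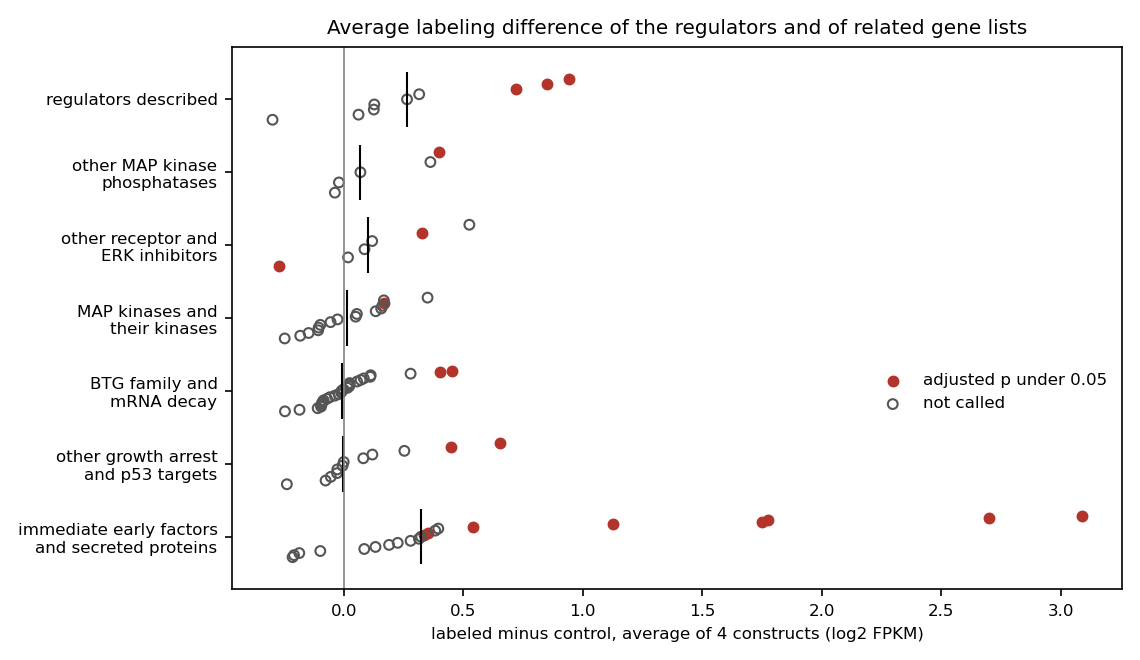
Average labeled minus control difference over the 4 constructs (log2 FPKM) for the 9 regulators tested and for 6 related gene lists. Points are genes, filled red where the adjusted p is under 0.05, and vertical bars are list medians. EGR1, FOS and FOSB lie furthest right, beyond GADD45B, ARC and DUSP1.

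The regulators' patterns were also compared with each other over the 26 libraries, after the mean of each construct was taken off. These correlations are descriptions, since the libraries share the labeled and control split and differ in depth. DUSP1 went most closely with GADD45B (Pearson r = 0.86), ARC (0.83), BTG2 (0.81) and DUSP5 (0.71). ZFP36L1 ran opposite to GADD45B (r = -0.68), and DUSP4 was close to 0 with GADD45B (r = 0.01). Pairs among DUSP1, GADD45B, ARC, BTG2 and DUSP5 ran from 0.51 for DUSP5 with ARC to 0.86. Pairs reaching outside these genes came as high as 0.56 (ZFP36L2 with BTG2) and 0.52 (ZFP36 with ARC), so they are not a separate set. The labeled minus control difference that helped choose the genes was not taken off and enters these values.

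Among 15085 other named genes whose mean log2 FPKM was 1 or more, the pattern most like that of DUSP1 belonged to IER5 (r = 0.92), itself an immediate early gene, and to RNU1-13P (0.90), a U1 pseudogene whose reads may come from near-identical copies. GADD45B was most like FAM53C (0.93) and LUZP1 (0.91), and ARC most like RNU1-13P (0.87) and CNNM4 (0.87). DUSP5 was most like PCDH10 (0.81) and ATF3 (0.77), a stress-induced transcription factor, and BTG2 most like TFIP11 (0.87) and MLEC (0.86). For ZFP36L1 the closest were DUS4L (0.88) and SERTAD4 (0.83), and for ZFP36L2 AC100830.2 (0.75) and TNRC6C (0.71). The low genes ZFP36 and DUSP4 were closest to small nucleolar RNAs and pseudogenes. ZFP36 was closest to AC006960.1 (0.82) and SNORA71B (0.81), and DUSP4 to RF00334 (0.89) and HSPA8P3 (0.86). DUSP4 had its lowest value, -2.19 log2 FPKM from 21 reads, in PDGFR control replicate 2. ZFP36 had its lowest, -1.87 from 7 reads, in CD28 labeled replicate 2. Both libraries stood apart, and how far they carry these r values was not tested.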

How the data were processed

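Per the file headers and labels, the deposited values are log2 FPKM per Ensembl gene for 26 libraries, made by the authors from total RNA pulled down on streptavidin beads. The submitters' processing notes name HISAT2 2.1.0, the build hg38 and edgeR without a version. Symbols came from GENCODE 29 (24075 identifiers matched with their version, 1579 without it, 91 did not match). The values carry a prior count of about 1 read, which was undone to recover reads, and at least 96.9% of values under 100 reads came out whole with a tolerance of 0.05 read. Differences of low genes are therefore understated.

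Groups followed the sample titles, which the series' design text calls biological replicates. The 22284 genes with log2 above 0 in at least 3 libraries were fitted with limma 3.58.1 (R 4.3.3): a mean per group over all libraries, an intensity trend, library weights by construct (Lyn11 0.993, Lck 2.654, CD28 0.632, PDGFR 0.602), 18 residual degrees of freedom, two-sided, Benjamini-Hochberg within each of 9 comparisons. The weighted fit was run on simulated data with known changes. Their noise was independent between libraries, with a spread set by gene and construct, as the weights assume. That run therefore cannot show how the fit handles single libraries that stand apart. What the run recovered is not given here, so it is not read as support for the fit. The weights were chosen with earlier results of these data known. The regulators, gene lists and motifs were chosen with earlier results of these data known. All 10 regulators were named, with up to 3 called genes per direction and related list, and for each regulator the 2 genes of most similar pattern. The alternatives were equal weights, other filters, median centring, 1 FPKM added, limma voom on recovered reads, a replicate block, the groups involved fitted alone, and libraries left out. Depth was 11.6 to 35.57 M reads per library.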

Additional observations from a re-analysis of the deposited data

Results flagged for a closer look

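Of 20 groups of 4 libraries examined for a library far from the others, 2 held one, and chance flags about 1 in 20 groups. GADD45B in Lyn11 control replicate 1 was at 3.48 log2 FPKM, far above the other Lyn11 controls at 2.58 to 2.71. This library was also the highest Lyn11 control for 7 of 9 regulators. DUSP6 in Lyn11 labeled replicate 4 was at -4.69 log2 FPKM, below the other Lyn11 labeled libraries at -2.18 to -1.94, and rests on 3 reads.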

How the results depend on the processing

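The p-values measure the spread between libraries, and depth limits DUSP6, ZFP36 and DUSP4. Genes called (labeled minus control unless named) moved by over 1.5 times as follows, and the cause was not tested. For Lyn11, 169 became 93 with a stricter filter (log2 above 1 in 6 libraries) and 84 to 281 with single libraries left out. For Lck, 1831 became 177 with equal weights (95.5% higher, against 65.5%), 1106 with the stricter filter, 1104 with the replicate block, 984 fitted alone and 1010 to 1868 with single libraries left out. For CD28, 15 became 106 with equal weights, 32 with 1 FPKM added, 0 with the block, 0 fitted alone and 0 to 40 with single libraries left out. For PDGFR, 119 became 475 with equal weights, 23 by voom, 29 with the block, 15 fitted alone and 42 to 213 with single libraries left out. The average over constructs gave 1598, and 1065 with the stricter filter. Inside minus outside gave 0, but 1 with equal weights, 3 with 1 FPKM added, 2 without CD28 labeled replicate 2 and PDGFR control replicate 2 together, and 0 to 5 with single libraries left out. CD28 minus PDGFR gave 3, but 11 with equal weights, 1 with 1 FPKM added, 0 by voom, with the block and fitted alone, 9 without both libraries, and 2 to 16 with single libraries left out. Controls, inside minus outside, gave 2206, 1418 with the block, and 941 (without CD28 control replicate 2) to 2779 with single libraries left out. The average and the inside minus outside comparison use all groups, so no separate fit was run.

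Same-numbered labeled and control libraries gave 13 pairs with correlations of -0.392 to 0.264, 4 of them over 0.1, so the numbers were not taken to pair libraries. With the replicate block, ARC with Lck and BTG2 and ZFP36L2 in controls lost their calls, and no other regulator's call changed. With equal weights the Lck calls of DUSP1, DUSP5, GADD45B and ARC and the BTG2 call in controls ended, and the average differences of DUSP5 and ZFP36L1 became called. With the groups fitted alone, GADD45B with Lyn11, ARC with Lck and BTG2 and ZFP36L2 in controls lost their calls. Centring on medians moved the median of all genes to 0.148 from 0.025 for CD28, to 0.133 from 0.048 in controls and to -0.109 from -0.038 for inside minus outside. The sign changed in 25 values, 13 of them labeled minus control, of which 10 were of DUSP4. Inside minus outside, DUSP4 became 0.063 and BTG2 0.125 without both libraries that stood apart, and ZFP36L1 -0.004 with median centring. With single libraries left out, inside minus outside ran from -0.627 to 0.030 for DUSP4, -0.033 to 0.123 for ZFP36L1 and -0.169 to 0.055 for BTG2, ZFP36 in controls ran from -0.305 to 0.041, and ARC in Lyn11 minus Lck from -0.056 to 0.501. Of 2311 alternative values for 67 regulator results, 2208 kept both direction and side of the threshold and 78 crossed it. The kept count is no measure of stability, since much of it was fixed in advance. Of the alternatives, 26 left out 1 library, and a library outside the groups compared cannot move a difference. Results far from the threshold also had little room to cross it. Calls were lost in 65, 27 of them for BTG2 and 23 for ZFP36L2 in controls, and gained in 13.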
